A study of Mus musculus with 3 samples.

Results

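The miRNAs described here come from 4 mouse precursor genes, Mir216a, Mir216b, Mir217 and Mir375, out of 1174 miRNA precursors to which small RNA inserts were compared. The members are the guide strands miR-375-3p, miR-217-5p, miR-216b-5p and miR-216a-5p together with the opposite arm of each hairpin, 8 arms in all, of which 7 had at least 1 read. The livers were those of C57BL/6 mice, an inbred laboratory strain, taken 4 weeks after the animals were injected with scAAV9, an adeno-associated virus whose genome is self-complementary. This vector expressed a Tough Decoy (TuD) against miR-122, a TuD against let-7, or no TuD (mock), and all 3 groups received vector. A TuD is a hairpin RNA that holds a target miRNA on exposed binding sites; neither decoy is directed at a miRNA described here. Each group had 1 library of gel-purified RNAs of 18 to 30 nt; the sources used here do not give the number, sex or age of the animals, or the promoter of the decoys. No difference between groups therefore has a replicate check, and every interval below is at 95% and covers counting error only.

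miR-216a, miR-216b and miR-217 are known as miRNAs of the acinar cells of the exocrine pancreas, which make digestive enzymes. miR-375 is known from the islets, where it restrains insulin secretion and maintains the mass of alpha and beta cells, and it is also found in other endocrine and gut epithelial cells. A miRNA guide strand directs the Argonaute protein to mRNAs through its seed, bases 2 to 8 from its 5′ end. The other strand of the hairpin, the passenger, is mostly degraded.

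The mature sequences are shown because the seed distinguishes the acinar miRNAs from each other and because one of them was read from a second 5′ end. They were taken from RefSeq (GRCm38.p6), with the seed in capitals:

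miR-216a-5p: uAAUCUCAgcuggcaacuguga

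miR-216b-5p: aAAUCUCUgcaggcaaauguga

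miR-217-5p: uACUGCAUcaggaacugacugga

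miR-216a-5p and miR-216b-5p are related, with 18 of 22 positions identical. Counted from 1 at the 5′ end and with the base of miR-216a-5p first, they differ at U1A, A8U, U11A and C17A, so that the last base of the seed is not shared. Among the 1679 mature mouse miRNAs of the RefSeq table, no other one carries the seed of miR-216a-5p, of miR-216b-5p or of miR-217-5p.

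The acinar genes lie close together on chromosome 11 of GRCm38, plus strand, in the order Mir216b (ENSMUSG00000076318.1, 28746191 to 28746276), Mir216a (ENSMUSG00000065539.1, 28757012 to 28757083) and Mir217 (ENSMUSG00000065415.1, 28763728 to 28763835), over 17645 bases. Mir216a and Mir217 lie in an intron of the long noncoding RNA Gm12082 on the same strand, and Mir216b lies upstream of its annotated start, in no annotated host gene. Mir216c is annotated on the opposite strand across Mir216b; no insert in any library matched it exactly. Mir375 (ENSMUSG00000065616.3) lies apart, on chromosome 1 from 74900658 to 74900721, minus strand, outside annotated genes, with Cfap65 as the nearest coding gene.

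The libraries held 3681585 reads in TuD-miR-122, 2066892 in TuD-let-7 and 3450317 in mock. Levels are RPM, the reads of a miRNA scaled to 1000000 non-target miRNA reads, that is, those outside the miR-122 and let-7 loci. Non-target reads numbered 1445569 in TuD-miR-122, 483583 in TuD-let-7 and 1369968 in mock. Reads of miR-122-5p, the defining miRNA of hepatocytes, made up 32.6% of miRNA reads in TuD-miR-122, 64.6% in TuD-let-7 and 37.7% in mock. The 3 libraries differed in other tissue-restricted miRNAs. Arms of 5 skeletal muscle miRNAs summed to 1009 RPM in TuD-miR-122, 242 RPM in TuD-let-7 and 10693 RPM in mock, and arms of 26 miRNAs of the imprinted Dlk1-Dio3 cluster to 14273, 3317 and 974 RPM in the same libraries. In such bulk RNA, fewer cells of a type and less RNA per cell cannot be told apart.

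The members were a small part of every library. Their arms together had 2353 reads in 86 distinct inserts in TuD-miR-122, 80 reads in 22 inserts in TuD-let-7 and 165 reads in 27 inserts in mock, which is 0.0888%, 0.00529% and 0.00609% of miRNA reads. A floor of 3 reads stood for 2.08 RPM in TuD-miR-122, 6.20 RPM in TuD-let-7 and 2.19 RPM in mock.

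The first question was how far these levels in decoy-treated liver departed from those in mock-vector liver. In the TuD-miR-122 library all 4 guide strands were at least 10.3 times their level in mock, and the summed acinar miRNAs were further above mock than miR-375-3p. In the TuD-let-7 library the intervals of the acinar miRNAs included the level in mock, on the scale of non-target reads, and miR-375-3p was at 2.02 times mock. Both comparisons share the mock library.

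**Figure D1:**
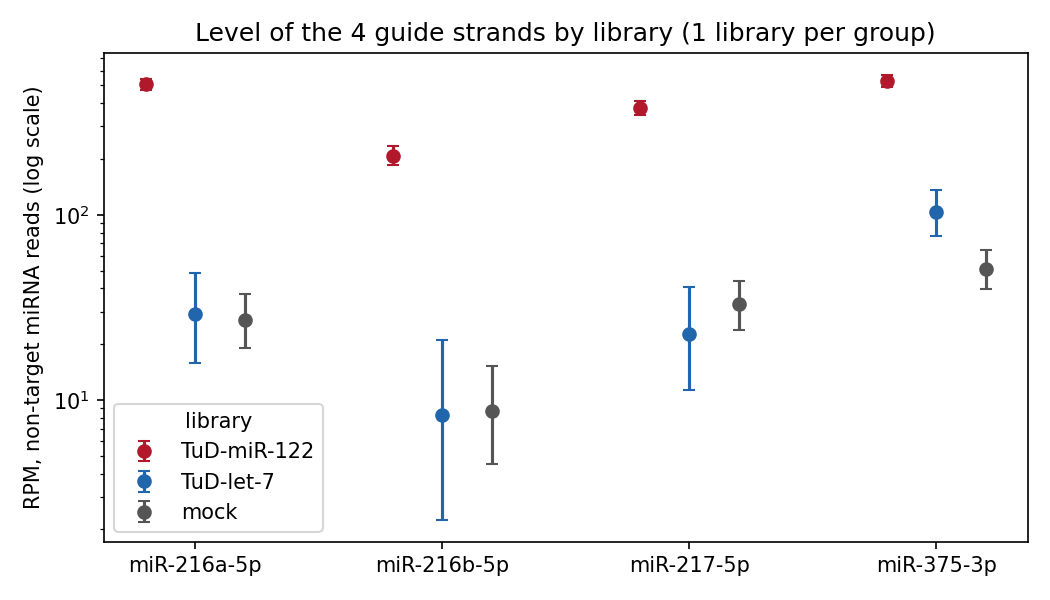
Level of each guide strand (RPM of non-target miRNA reads, log scale) in TuD-miR-122, TuD-let-7 and mock; points are the value of 1 library and bars its exact Poisson 95% interval. All 4 guides stand highest in TuD-miR-122, between 209 and 529 RPM.

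miR-216a-5p had 732 reads (506 RPM, 470 to 544) in TuD-miR-122, 14 reads (28.95 RPM, 15.8 to 48.6) in TuD-let-7 and 37 reads (27.0 RPM, 19.02 to 37.2) in mock. The interval in TuD-miR-122 did not overlap the others, which overlapped each other. TuD-miR-122 was 18.7-fold above mock (13.5 to 26.8), and TuD-let-7 stood at 1.07 times mock (0.535 to 2.03).

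miR-216b-5p, its relative from the same locus, was the least abundant guide of the 4 in every library. It had 302 reads (209 RPM, 186 to 234) in TuD-miR-122, 4 reads (8.27 RPM, 2.25 to 21.2) in TuD-let-7 and 12 reads (8.76 RPM, 4.53 to 15.3) in mock. Its ratio of TuD-miR-122 to mock was the highest of the 4 guides, 23.9-fold (13.5 to 46.7), on few mock reads. The counts in TuD-let-7 and mock cannot resolve a 3-fold difference in either direction, with a ratio of 0.944 (0.222 to 3.12).

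miR-217-5p, the third acinar guide, had 544 reads (376 RPM, 345 to 409) in TuD-miR-122, 11 reads (22.7 RPM, 11.4 to 40.7) in TuD-let-7 and 45 reads (32.8 RPM, 24.0 to 44.0) in mock. TuD-miR-122 was 11.5-fold above mock (8.45 to 15.9), and TuD-let-7 was at 0.693 of mock (0.323 to 1.36), an interval that includes equality. Summed, the acinar guides had 1578, 29 and 94 reads in TuD-miR-122, TuD-let-7 and mock. TuD-miR-122 was 15.9-fold above mock (12.9 to 19.8) for this sum, and TuD-let-7 was at 0.874 of mock (0.556 to 1.34).

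miR-375-3p, the islet member, was the most abundant of the 4 guides in each library. It had 764 reads (529 RPM, 492 to 567) in TuD-miR-122, 50 reads (103 RPM, 76.7 to 136) in TuD-let-7 and 70 reads (51.1 RPM, 39.8 to 64.6) in mock. The 3 intervals did not overlap, with TuD-miR-122 highest and mock lowest. TuD-miR-122 was 10.3-fold above mock (8.09 to 13.4) and TuD-let-7 2.02-fold (1.38 to 2.95). The second value depends on the scale, since miR-375-3p in TuD-let-7 was 1.19 times mock (0.812 to 1.74) when scaled to all reads; on that scale the acinar sum was at 0.515 of mock (0.327 to 0.788).

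In the order of levels in TuD-miR-122, miR-375-3p and miR-216a-5p had overlapping intervals, whereas miR-217-5p lay below both and miR-216b-5p below all. In mock, the interval of miR-375-3p overlapped that of miR-217-5p, next below it, but not that of miR-216a-5p, and miR-216b-5p lay below all. In TuD-let-7, miR-375-3p stood clear of the acinar guides, whose intervals overlapped each other. Among all miRNAs with a read, miR-375-3p ranked 107 of 419 in TuD-miR-122, 176 of 405 in TuD-let-7 and 209 of 417 in mock, and miR-216b-5p ranked 155, 330 and 319.

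The background of the TuD-miR-122 comparison was itself shifted for a group of miRNAs. Calls were limited to miRNAs whose reads in the pair of libraries came to 100 or more, and required an interval of the ratio wholly above 2 or wholly below 0.5. Of 227 non-target miRNAs with enough reads in TuD-miR-122 and mock, 31 were called higher (13.7%) and 11 lower (4.85%), and their median ratio was 0.985. All 4 guides were among the 31. From the highest ratio down, miR-216b-5p ranked 4, miR-216a-5p 8, miR-217-5p 25 and miR-375-3p 26 of the 227. The members were chosen with these ratios known, and each guide reached 100 reads only through TuD-miR-122. Their place there is therefore a description.

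In TuD-let-7 against mock, 7 of 193 non-target miRNAs were called higher (3.63%) and 8 lower (4.15%), together 7.77%, with a median ratio of 0.988. Only miR-375-3p had enough reads to be placed there; it was not called, and 11 of the 193 had a higher ratio. The acinar guides had 56 (miR-217-5p), 51 (miR-216a-5p) and 16 (miR-216b-5p) reads over both libraries, too few for the rule.

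**Figure D2:**
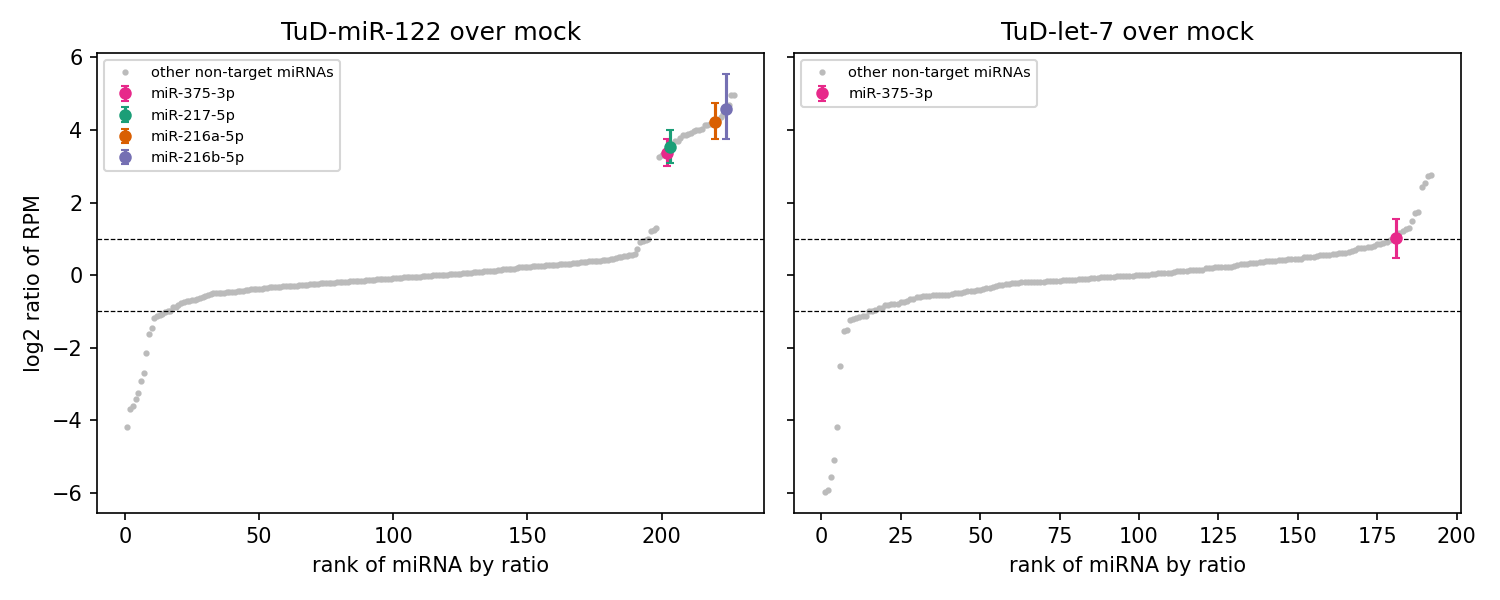
log2 ratio to mock of each non-target miRNA that reached 100 reads in the pair of libraries, ranked from lowest to highest, for TuD-miR-122 (left) and TuD-let-7 (right); coloured points are members with exact 95% counting intervals and dashed lines mark 2-fold. On the left the 4 guides lie in the detached upper group, at log2 ratios of 3.37 to 4.58. On the right miR-375-3p lies near the upper dashed line. A miRNA with 0 reads in TuD-let-7 and 127 in mock has no finite log2 ratio and is not drawn on the right.

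The decoy libraries were also set against each other, which leaves mock out. TuD-miR-122 exceeded TuD-let-7 by 17.5-fold (10.4 to 32.2) for miR-216a-5p, 25.3-fold (9.76 to 93.3) for miR-216b-5p, 16.5-fold (9.17 to 33.3) for miR-217-5p and 5.11-fold (3.84 to 6.95) for miR-375-3p. All 4 guides were called higher, beside 37 of 213 non-target miRNAs called higher (17.4%) and 6 called lower (2.82%), together 20.2%. The interval of miR-375-3p lay below that of each acinar guide.

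Within a library, the ratio of acinar guide reads to miR-375-3p reads needs no scaling. The summed acinar guides came to 2.07 reads per read of miR-375-3p in TuD-miR-122 (1.89 to 2.25), 0.580 in TuD-let-7 (0.354 to 0.935) and 1.34 in mock (0.975 to 1.86). Acinar reads outnumbered those of miR-375-3p in TuD-miR-122. In TuD-let-7 they were fewer, but the interval reached 1.01 with 1 mismatch allowed (ratio 0.661) and 1.23 with inserts read once left out (0.744). This ratio in TuD-miR-122 was 1.54 times that in mock (exact conditional interval of the odds ratio 1.10 to 2.15) and 3.56 times that in TuD-let-7 (2.19 to 5.88). In TuD-let-7 it was 0.432 times that in mock (0.239 to 0.777). These intervals compare libraries, not conditions.

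The proportions among the acinar miRNAs varied less than their levels. miR-216a-5p made up 46.4% of acinar reads in TuD-miR-122 (43.9 to 48.9), 48.3% in TuD-let-7 (29.4 to 67.5) and 39.4% in mock (29.4 to 49.98). miR-217-5p made up 34.5% (32.1 to 36.9), 37.9% (20.7 to 57.7) and 47.9% (37.5 to 58.4) in the same libraries, so that its share in TuD-miR-122 lay below the interval in mock. miR-216b-5p made up 19.1% (17.2 to 21.2), 13.8% (3.89 to 31.7) and 12.8% (6.77 to 21.2), with overlapping intervals.

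Fragments of mRNAs in the same libraries were counted as a second readout of pancreatic RNA. Unassigned inserts of at least 18 nt that matched mRNAs of acinar enzymes and no gene outside that list numbered 338 in TuD-miR-122, 39 in TuD-let-7 and 28 in mock. That is 91.8, 18.9 and 8.12 per 1000000 reads. TuD-miR-122 was 11.3-fold above mock (7.69 to 17.3) and TuD-let-7 2.33-fold (1.39 to 3.92). Of the 35 listed genes, 34 are in the annotation and 32 had reads in at least 1 library, though many amylase and trypsin reads fit several copies of those gene families.

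Among them, the amylases, which digest starch, gave 148 reads in TuD-miR-122, 16 in TuD-let-7 and 18 in mock, of which Amy1, a form also made by liver and salivary gland, accounted alone for 2, 0 and 5. The 5 groups of genes with most reads were 3 sets of Amy2 copies that cannot be told apart, Pnlip (pancreatic lipase) and Ctrb1 (chymotrypsinogen). Pnlip had 27 reads in TuD-miR-122, 2 in TuD-let-7 and 3 in mock, and Ctrb1 had 25, 4 and 1. Lipase-related genes together gave 59, 3 and 3 reads, trypsins 28, 5 and 2, and elastases 29, 7 and 3.

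mRNA fragments of other cell types moved as well. Fragments of 10 hepatocyte mRNAs such as Alb (albumin) numbered 2673 in TuD-miR-122, 412 in TuD-let-7 and 1283 in mock, so TuD-miR-122 was 1.95-fold above mock per 1000000 reads (1.83 to 2.09) and TuD-let-7 was at 0.536 of mock (0.479 to 0.599). Per 100 hepatocyte fragments there were 12.6 acinar fragments in TuD-miR-122 (11.3 to 14.2), 9.47 in TuD-let-7 (6.63 to 13.2) and 2.18 in mock (1.44 to 3.17). On this measure the intervals of the decoy libraries overlapped and both lay above mock. Scaled to all reads, as the fragments above are, the acinar miRNA sum in TuD-let-7 was at 0.515 of mock. There were 4.67 acinar miRNA reads per acinar mRNA fragment in TuD-miR-122 (4.15 to 5.27), 0.744 in TuD-let-7 (0.443 to 1.23) and 3.36 in mock (2.18 to 5.32).

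None of the 12 islet mRNAs searched, including Ins1 and Ins2 (insulin), Gcg (glucagon) and Sst (somatostatin), had a read in any library. The floor of 3 reads stood for 0.815 per 1000000 reads in TuD-miR-122, 1.45 in TuD-let-7 and 0.869 in mock. That floor is a set value and not a 95% limit. Ttr, which islets and hepatocytes share, was counted with the hepatocyte list. Of the 6 duct mRNAs, Spp1 alone had reads, 3 in TuD-miR-122. The part of pancreatic RNA in the levels of the 4 guides was not tested.

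**Figure D3:**
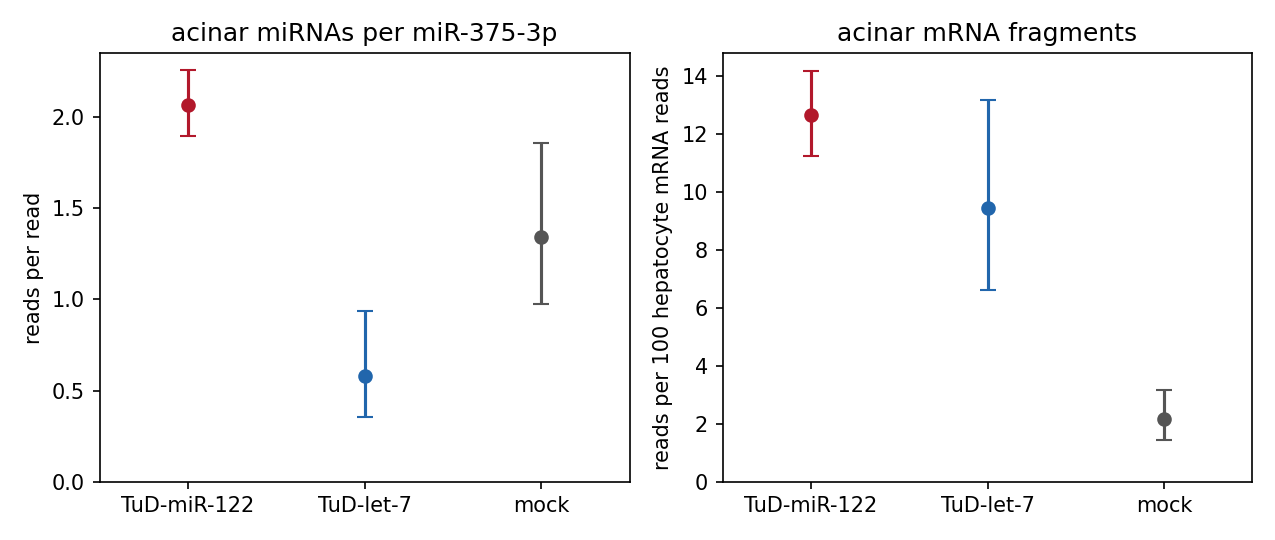
Left, reads of the 3 acinar guides per read of miR-375-3p; right, acinar mRNA fragments per 100 hepatocyte mRNA fragments, in TuD-miR-122, TuD-let-7 and mock, with exact 95% counting intervals. The left ratio is 2.07, 0.580 and 1.34, and the right one 12.6, 9.47 and 2.18.

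Lists of miRNAs of cell types related to the members gave a mixed picture. Of 10 listed islet and neuroendocrine miRNAs, 9 were found by name. The arms of miR-7a, named miR-7 here, were missed. Of the arms found, 4 had enough reads in TuD-miR-122 and mock. Only miR-375-3p of these was called higher, and their median ratio, with 0.5 reads added to each count as for every list median, was 1.09. Outside that median, miR-7-5p stood at 0.923 of mock (0.880 to 0.969) and miR-7-3p at 0.997 (0.794 to 1.25), neither of them called. miR-182-5p and miR-96-5p, which share the miR-183 cluster of sensory and endocrine cells, stood at 0.974 (0.825 to 1.15) and 0.932 of mock (0.778 to 1.12). Of 9 tested arms of epithelial and duct miRNAs, 2 were called higher and 3 lower in TuD-miR-122, beside 13.7% higher and 4.85% lower over all 227 miRNAs. The epithelial miRNAs miR-200a-3p and miR-200b-3p stood at 1.98 (1.86 to 2.11) and 1.93 times mock (1.79 to 2.08). miR-31-5p stood at 0.467 of mock (0.442 to 0.494). Of 12 tested arms of hepatocyte miRNAs, none was called higher and 1 lower in TuD-miR-122, with a median ratio of 0.837. At these list sizes 2 of 9 higher or 1 of 12 lower is near the share over all miRNAs. The 3 of 9 epithelial and duct arms called lower are a larger share than the 4.85% over all miRNAs. The skeletal muscle list went the other way from the members, with 5 of 5 tested arms called lower.

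Outside the 4 hairpins, the miRNAs whose levels over the 3 libraries were most like those of the members came from chromosome 12. Likeness was the Euclidean distance between log2 RPM values centred over the 3 libraries, among the 238 non-target miRNAs, the members' own arms left out, whose reads in all libraries came to 100 or more. For miR-216a-5p the nearest of these were miR-411-5p (distance 0.20 on the log2 scale), miR-411-3p (0.21) and miR-494-3p (0.91). Of the same candidates, these miRNAs were also the nearest for miR-216b-5p, at 0.51 (miR-411-5p), 0.44 (miR-411-3p) and 1.16 (miR-494-3p), and for miR-217-5p, at 0.49, 0.34 and 1.20. By the same measure miR-216a-5p lay 0.30 from miR-216b-5p and 0.54 from miR-217-5p, and miR-216b-5p lay 0.72 from miR-217-5p, all nearer than miR-494-3p. The miR-411 arms lay nearer to miR-216a-5p and to miR-217-5p than the other acinar guides did, whereas miR-216b-5p was nearest to miR-216a-5p. miR-375-3p lay 1.23 from miR-216a-5p, 1.52 from miR-216b-5p and 1.29 from miR-217-5p. For miR-375-3p the nearest candidates were miR-299a-5p (0.06), miR-369-3p (0.11) and miR-381-3p (0.35). miR-411-5p, for instance, had 564 RPM in TuD-miR-122, 39.3 RPM in TuD-let-7 and 35.0 RPM in mock. In the Dlk1-Dio3 list, 24 of 24 tested arms were called higher in TuD-miR-122 than in mock, beside 13.7% over all 227 miRNAs. Their median ratio was 15.5, with 0.5 reads added to each count. Such likeness rests on 3 points, of which TuD-miR-122 stands apart.

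Passenger strands were rare. Over the 3 libraries Mir216a gave 783 reads of miR-216a-5p and 7 of miR-216a-3p, of which 5 were in TuD-miR-122 and 1 in each other library. In TuD-miR-122 that is 146 guide reads per passenger read (62.4 to 452). miR-216b-3p had 4 reads and miR-217-3p 2, all in TuD-miR-122, for 75.5 (29.2 to 279) and 272 (74.9 to 2252) guide reads per passenger read. With starts within 2 nt, miR-217-3p had 3 reads in TuD-miR-122, for a ratio of 223, and 1 read in mock. miR-375-5p had no read in any library, against 884 reads of miR-375-3p, a share of Mir375 reads with an exact interval of 0 to 0.416%. All 4 precursors thus gave reads almost wholly from the arm taken here as the guide. In TuD-let-7 and mock the guide reads were too few to place these ratios.

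miR-217-5p was read from a second 5′ end. The forms below are shown because the shift by 1 nt changes the seed; they are deposited inserts in DNA letters, with bases 2 to 8 of each in capitals:

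main start, 22 nt: tACTGCATcaggaactgactgg

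main start, 23 nt: tACTGCATcaggaactgactgga

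start 1 nt upstream, 23 nt: aTACTGCAtcaggaactgactgg

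Among inserts starting within 2 nt of the main start, the start 1 nt upstream made up 16.6% in TuD-miR-122 (111 of 669 reads, 13.9 to 19.6), 15.4% in TuD-let-7 (2 of 13, 1.92 to 45.4) and 15.1% in mock (8 of 53, 6.75 to 27.6). The 3 intervals overlapped, the one in TuD-let-7 resting on 2 reads. No mature mouse miRNA in the RefSeq table has the seed UACUGCA of that form. Of the 205 non-target miRNAs that reached 100 such reads in TuD-miR-122, 14 had a larger share at this shift and the median was 0.0147%.

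The other guides began almost always at 1 base. In TuD-miR-122 the main start held 98.3% of miR-216a-5p reads (97.0 to 99.1), 99.3% of miR-216b-5p reads (97.6 to 99.9) and 94.2% of miR-375-3p reads (92.4 to 95.7). For miR-375-3p, 4.69% (3.34 to 6.37) started 1 nt downstream, against a median of 1.78% over the 205 miRNAs; 35 of them had a larger share.

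**Figure D4:**
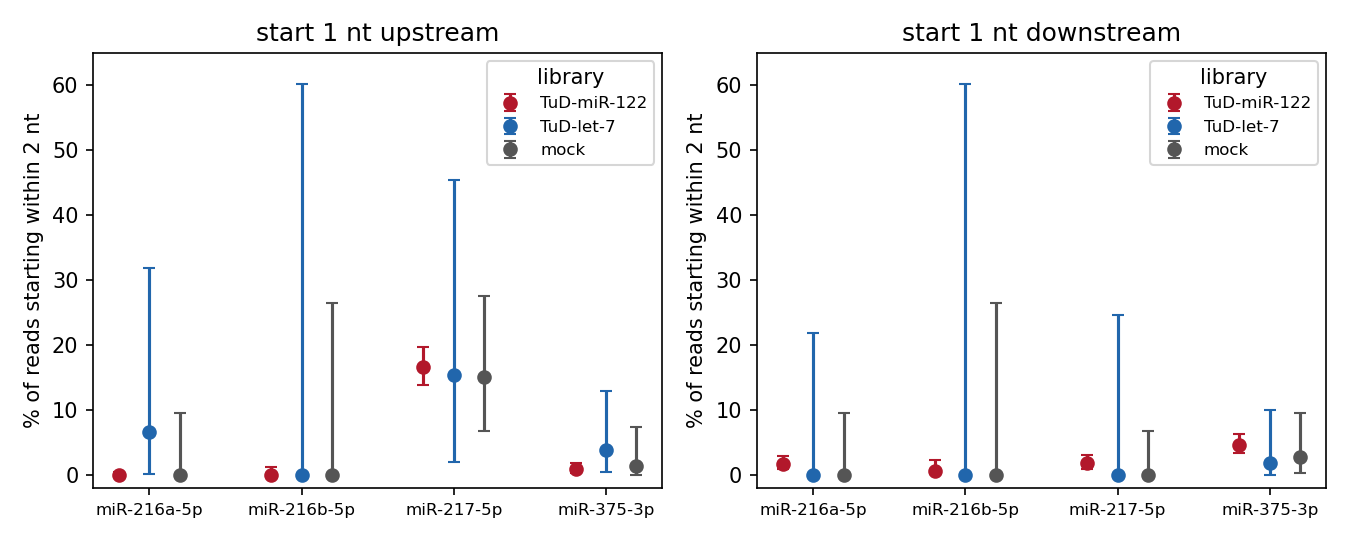
Percent of inserts of each guide that start 1 nt upstream (left) or downstream (right) of its main 5′ end, of those starting within 2 nt, in TuD-miR-122, TuD-let-7 and mock, with exact Clopper-Pearson 95% intervals. miR-217-5p stands at 15.1% to 16.6% upstream in all 3 libraries.

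The length forms differed between the guides. Untailed inserts of 22 nt in the TuD-miR-122 library made up 81.0% of miR-216a-5p (593 of 732 reads), 83.8% of miR-216b-5p (253 of 302), 69.5% of miR-217-5p (378 of 544) and 79.3% of miR-375-3p (606 of 764). For miR-217-5p, annotated at 23 nt, the 23-nt form made up 16.2% (13.2 to 19.5) in TuD-miR-122, with 88 reads. The last base of that form is A, so a 22-nt form with an added A would be counted there. In mock the 22-nt form of miR-217-5p had 31 of 45 reads and the 23-nt form 11, and in TuD-let-7 they had 7 and 2 of 11, so the 22-nt form led in each library. The 21-nt form made up 12.6% of miR-216b-5p (9.06 to 16.9) and 7.10% of miR-216a-5p (5.35 to 9.21) in TuD-miR-122.

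**Figure D5:**
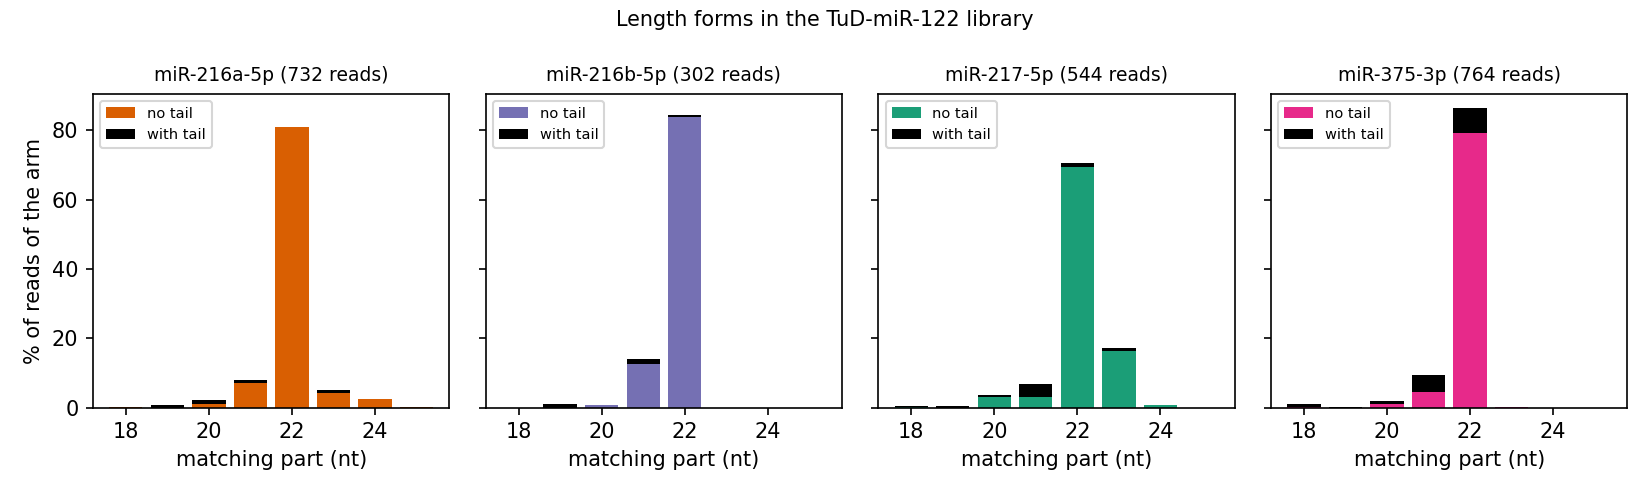
Percent of the reads of each guide in TuD-miR-122 by the length of the part that matches the precursor, from 18 nt up, in colour without and in black with a 3′ tail. The 22-nt form leads in all 4 guides, and tails are most visible on miR-375-3p.

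A tail was any 3′ end of up to 5 nt that did not match the precursor. Tailed reads made up 3.69% of miR-216a-5p (2.44 to 5.32), 2.98% of miR-216b-5p (1.37 to 5.58), 7.17% of miR-217-5p (5.15 to 9.67) and 14.8% of miR-375-3p (12.3 to 17.5) in TuD-miR-122. Of non-target miRNAs, 199 reached 100 reads there, and their median was 23.7%. All 4 were below it, with 197 of the 199 above miR-216a-5p and 198 above miR-216b-5p. In mock the tailed reads were 1 of 37, 0 of 12, 3 of 45 and 13 of 70 in the same order of guides. For miR-375-3p that is 18.6% (10.3 to 29.7), an interval that overlaps that of TuD-miR-122.

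Of the miR-375-3p reads in TuD-miR-122, 5.24% carried a tail of only A (3.77 to 7.06) and 5.76% a tail of only T, which stands for uridine (4.22 to 7.65). The most frequent were A on 22 matching nt, with 32 reads, and T on 21 matching nt, with 30. On miR-217-5p a tail of A on 21 matching nt led, with 16 reads, and tails of only A stood on 4.04% of reads (2.55 to 6.06). On miR-216a-5p and miR-216b-5p tails of only A stood on 0.546% (0.149 to 1.39) and 0.662% (0.0803 to 2.37). The median over the 199 miRNAs was 7.55% for A and 7.08% for T.

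Reads with a matching part under 21 nt, called trimmed, made up 3.14% of miR-216a-5p (2.002 to 4.68), 1.66% of miR-216b-5p (0.540 to 3.82), 4.60% of miR-217-5p (2.996 to 6.71) and 4.32% of miR-375-3p (2.99 to 6.01) in TuD-miR-122, against a median of 7.67% over the 199 miRNAs. In mock they were 1 of 37, 0 of 12, 0 of 45 and 6 of 70 reads. In TuD-let-7 trimmed reads were 0 of 14 for miR-216a-5p, 0 of 4 for miR-216b-5p and 2 of 11 for miR-217-5p. For miR-217-5p that is 18.2% in TuD-let-7 (2.28 to 51.8), which overlaps the interval of 0 to 7.87 in mock; the intervals of each acinar guide overlapped between all libraries.

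In TuD-let-7, trimmed and tailed reads were a larger share of non-target miRNAs in general. The median trimmed share was 13.8% over 135 miRNAs in TuD-let-7, 7.67% over 199 in TuD-miR-122 and 7.51% over 177 in mock, and the median tailed share was 31.3%, 23.7% and 25.7% in the same libraries. For miR-375-3p in TuD-let-7, tailed reads were 19 of 50, or 38.0% (24.7 to 52.8), an interval that lies above that of TuD-miR-122 and overlaps that of mock. Trimmed reads were 16 of 50, or 32.0% (19.5 to 46.7), against 4.32% in TuD-miR-122 (2.99 to 6.01) and 8.57% in mock (3.21 to 17.7). Tails of only A or only T made up just 2 reads each. In 9 of the 49 reads that cover position 19 from the 5′ end, the first unmatched base was the substitution G19T, 18.4% (8.76 to 32.0), against 4 of 754 reads in TuD-miR-122 (0.531%, 0.145 to 1.35) and none of the mock reads. Those 9 reads were 3 distinct inserts, the largest with 5 reads. By the tail rule such reads count as both trimmed and tailed. With 1 mismatch allowed, the trimmed share of miR-375-3p was 25.4% in TuD-let-7 (14.98 to 38.4), 3.19% in TuD-miR-122 (2.10 to 4.65) and 11.1% in mock (5.21 to 20.05), so that the intervals of TuD-let-7 and mock overlapped. With tails of at most 2 nt its tailed share was 18.4% in TuD-let-7 (7.74 to 34.3), 12.7% in TuD-miR-122 (10.4 to 15.3) and 16.2% in mock (8.36 to 27.1), and all 3 intervals overlapped.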

How the data were processed

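The deposited files give, for each library, every distinct insert (15 to 30 nt) and its raw read count, not normalised. Per the labels' protocols, total RNA was extracted with miRvana (Ambion) and the 18 to 30 nt fraction gel-purified; for adapter removal, filters, aligner and genome build the labels used here name no tool or version. There are no molecular identifiers, so PCR copies count as reads.

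Inserts were compared with the 1174 miRNA precursors of GENCODE M21 (GRCm38). The 5′ end of an arm was the most frequent start of untailed reads (at least 10 reads; the RefSeq end for rarer arms of the members). A read was assigned when it began there and matched at least 16 nt; up to 5 unmatched 3′ nt were a tail. Arms with the same first 22 nt were merged, giving 424 entries. Reads that tied between entries, 0.327% to 0.347% of miRNA reads, were left out. Of the 4 guides, 3 matched a mature RefSeq entry; miR-375-3p is named only.

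Poisson, conditional-binomial and Clopper-Pearson intervals were exact. With 1 library per group no test between conditions was made. The code was tested on simulated data. Python 3.11, scipy 1.17.1.

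The members and lists were chosen with earlier results of these data known. Named beside the members are members of the lists from among their 3 most abundant, the 3 nearest in pattern to each guide, and the 5 mRNA groups with most reads. The arms of miR-7a, missed by name, were not ranked in the islet list. Their values, the other mRNAs, sums by enzyme family, and the G19T reads were chosen after their values were seen. Alternatives were other scalings, starts, matches, mismatches, tails, trimming limits and call rules.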

Additional observations from a re-analysis of the deposited data

How the results depend on the processing

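Of 93 recomputed main values, 85 stayed within the counting interval (or, for counts of members, within 1.5 times) and none changed direction. The 8 that moved were those of TuD-let-7 under 2 scalings. Scaled to all reads, TuD-let-7 over mock became 0.515 for the acinar sum and 1.19 for miR-375-3p, and TuD-miR-122 over TuD-let-7 became 30.5 and 8.58. Scaled to all miRNA reads, the same values were 0.553, 1.28, 31.0 and 8.71. These scales lower every ratio of TuD-let-7 to mock by 0.76 and 0.66 on the log2 scale; miR-122-5p made up 64.6% of miRNA reads in TuD-let-7 and 37.7% in mock. Over all non-target miRNAs, they gave 38 and 34 lower in TuD-let-7 than in mock, in place of 8, and 64 and 66 higher in TuD-miR-122 than in TuD-let-7, in place of 37. With the 3-fold rule the last count was 21, and with a minimum of 20 reads 52 of 356 were higher in TuD-miR-122 than in mock. All 4 guides were called higher in TuD-miR-122 against mock and against TuD-let-7 under each alternative. The guides were chosen with these ratios known, and reached the minimum reads of the main rule only through TuD-miR-122. Their calls under the alternatives are therefore a description and add no separate support. Tailed shares moved beyond their interval in 14 of 84 recomputed values and trimmed shares in 8 of 72. Leaving out inserts read once gave a tailed share of 8.20% for miR-375-3p in mock. No paired analysis was possible because each group had 1 library, and no replicate could be left out. Depth limits TuD-let-7 most, where 1 read stands for 2.07 RPM.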
